A study of Mus musculus with 12 samples.

Results

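The proteins of the cytosolic ribosome were examined in the RNA of 12 mouse heart samples. The genes were chosen by symbol (Rpl or Rps followed by a digit, and Rplp0, Rplp1, Rplp2 and Rpsa), without the Rps6k kinases and symbols ending in -ps, at a mean of at least 1 CPM (a gene's read count relative to the total of its library) over the 12 libraries. Of 24061 listed symbols, 87 matched and 81 reached that level. These 81 were 44 proteins of the large subunit, 30 proteins of the small subunit, 6 paralogues (Rpl3l, Rpl22l1, Rps27l, Rpl36al, Rpl7l1 and Rps4l) and Rps19bp1, which encodes a binding partner of a ribosomal protein and not a ribosomal protein. The samples came from male C57BL/6J mice aged 2 to 4 months on a chow diet. Of the samples, 6 were HKII+/- (heterozygous for hexokinase II) and 6 HKII+/+ (wild type). Nothing states that they come from separate animals, and hearts below means these samples. The sources used here give neither the kind of HKII allele nor the part of the heart taken. A library of each genotype, HKII+/- replicate 11 and HKII+/+ replicate 13, was described by the submitters as a potential outlier. These are called the marked libraries, and values are given with and without them.

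The cytosolic ribosome is built from a large and a small subunit, each an RNA scaffold covered by proteins that are present, with few exceptions, in 1 copy per ribosome. Most messenger RNAs for these proteins begin with a C followed by a run of pyrimidines, the 5′ terminal oligopyrimidine (TOP) motif, through which mTORC1 and the RNA-binding protein LARP1 adjust their translation together. Striated muscle also makes RPL3L, a paralogue that can take the place of RPL3 near the peptidyl transferase centre, and the elongation factor eEF1A2 beside eEF1A1. Hexokinase II, the isoform typical of heart and skeletal muscle, phosphorylates glucose as it enters glycolysis.

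The sequences around annotated transcription starts show a feature that many of these genes share and that the choice by symbol did not use. RefSeq promoters of GRCm38.p6 (250 bases before to 50 after the start) were found for 61 members, 55 of them subunit proteins. A C followed by at least 4 pyrimidines, starting within 10 bases of the annotated start on the gene's strand, was found in 33 of the 55 (60%), against 34.4% of all 27025 genes with a promoter entry. Each line below holds 20 bases on either side of the start, with the pyrimidine run in capitals, for a small subunit protein, a large subunit protein with a longer run, 1 gene each that was high (Rplp2) or low (Rpl28) in the marked libraries, and the muscle paralogue Rpl3l.
Rps6 (chr4:86857348-86857387, minus strand): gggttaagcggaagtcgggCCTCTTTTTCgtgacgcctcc
Rpl35 (chr2:39005112-39005151, minus strand): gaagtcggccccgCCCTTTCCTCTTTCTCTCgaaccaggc
Rplp2 (chr7:141447631-141447670, plus strand): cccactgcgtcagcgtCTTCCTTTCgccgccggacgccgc
Rpl28 (chr7:4792945-4792984, plus strand): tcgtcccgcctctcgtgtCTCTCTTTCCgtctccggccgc
Rpl3l (chr17:24727806-24727845, plus strand): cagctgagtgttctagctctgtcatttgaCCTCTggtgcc
The run spanned 10 bases in Rps6 and Rpl28, 18 in Rpl35 and 9 in Rplp2, and it began before the annotated start in all 4. In Rpl3l the run had 5 bases and began 9 bases after the annotated start.

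Other short motifs were searched for over the whole 300-base window. CCGGAAG, the core bound by ETS factors, was found on either strand in 23 of the 55 subunit proteins (41.8%) and in 9.93% of all genes. AAGATGGC, the core of the YY1 motif, was found on either strand in 4 (7.27%), against 3.19% of all genes. TATAAA in the 45 bases before the start, on the gene's strand, was found in none of the 55, against 2.94% of all genes. TAAAAATA, a sequence of the kind bound by the muscle factors of the MEF2 family, was found on either strand in none of the 55, against 3.09% of all genes. Rpl3l has a further annotated start within the gene, and TAAAAATA lies 122 bases before it, shown in capitals.
Rpl3l, internal start (chr17:24732549-24732584, plus strand): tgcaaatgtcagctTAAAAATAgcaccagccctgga
These matches describe letters in the windows and were not tested as sites.

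Libraries held 17263209 to 51556592 counts. Hk2, the gene that differs by design, measured 255.6 to 353.9 CPM in the 5 unmarked HKII+/- libraries and 470.7 to 542.2 CPM in the 5 unmarked HKII+/+ libraries. The library labelled HKII+/- replicate 11 measured 567.95 CPM, against its label, between the unmarked HKII+/+ libraries and HKII+/+ replicate 13 (652.3 CPM). That position depends on the scaling described at the end of this paragraph. Cardiomyocyte markers listed as ventricular (10 of 10), not all of them specific to the ventricle, summed to 69984 to 95833 CPM in the unmarked libraries. Those of airway and lung epithelium (10 of 10) summed to 0.567 to 1.96 CPM there. The 6 atrial markers summed to 338.3 to 7235 CPM in the unmarked libraries, with HKII+/- replicates 19 (338.3) and 22 (436.5) lowest. The 6 globin genes of the red cell list were listed at 0 in all 12 libraries. Levels here and below, those of Hk2 and the markers included, are CPM on a scale adjusted by TMM factors. The factors were 0.786 in replicate 11, 0.760 in replicate 13 and 0.993 to 1.09 elsewhere.

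In the 10 unmarked libraries the 81 genes together took 1.10 to 1.21% of all counts, with a mean of 1.16 ± 0.0383% (SD, n = 10). The share was 1.159 ± 0.0420% in HKII+/- and 1.154 ± 0.0390% in HKII+/+ hearts (SD, n = 5 each), so the genotypes differed by less than the spread between libraries. The marked libraries lay above all others, at 1.80% in HKII+/- replicate 11 and 1.60% in HKII+/+ replicate 13. With them the means became 1.27 ± 0.264% and 1.23 ± 0.186% (SD, n = 6 each). In RNA from a whole tissue, fewer cells of a type and less RNA per cell cannot be told apart.

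Per length of transcript, most subunit proteins had messenger levels close to each other. Over the unmarked libraries the median of the 74 subunit proteins was 168.1 CPM per kilobase of transcript, and 60 of them lay within 2-fold of that median. The middle of the range ran from 106.5 to 248.8 CPM per kilobase (the quartiles). Proteins of the small subunit had a median of 185.3 and those of the large subunit 138.6 CPM per kilobase. Per kilobase of coding sequence the medians were 292.2 and 243.3 CPM, and 65 of the 74 lay within 2-fold of the common median of 251.7.

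The highest levels per kilobase of transcript belonged to proteins of the ribosomal stalk and to 2 proteins of the small subunit. The stalk is the flexible arm of the large subunit that recruits the factors of translation, and it holds P0 with pairs of P1 and P2. Rplp1 measured 474.1, Rplp2 368.4 and Rplp0 354.9 CPM per kilobase. Rps2, a protein of the mRNA entry channel, measured 417.3, and Rps9, which sits in the body of the small subunit, measured 399.3. Rpsa, which encodes the protein also known as the laminin receptor precursor, measured 181.6, and Rps6, the classic substrate of the S6 kinases, 146.0 CPM per kilobase. Rps27a, whose product is made as a fusion with ubiquitin, measured 167.5, next to the common median. Per kilobase of coding sequence the order differed, with Rpl41 at 1284 and Rps29 at 604.2 CPM, above Rps2 at 473.8 CPM.

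At the other end, Rpl34 was the member nearest the threshold and stood far below all other subunit proteins. Its mean over the 12 libraries was 1.20 CPM without the TMM factors, and the next lowest, Rps19bp1, was at 10.3 CPM. Just outside the threshold lay Rps27 at 0.404, Rpl30 at 0.193 and the paralogue Rpl39l at 0.0756 CPM, while Rpl26, Rpl10l and Rps27rt were listed at 0 in every library. Rpl26, Rpl30, Rpl34 and Rps27 encode proteins of the large or small subunit and are not counted among the paralogues. All of them share transcript sequence with other genes. The share of 100-base windows found without mismatch in another gene's transcripts was 36.8% for Rpl26, 53.5% for Rpl30, 31.0% for Rpl34 and 98.4% for Rps27. The median over the 74 subunit proteins was 45.2%, with 33 genes above 50% and 5 genes at 0. The part of shared sequence in the low values was not tested. The sources used here do not say how reads that fit several genes were counted, and levels of genes with such sequence are uncertain. Rps20 was low per kilobase of transcript (31.2 CPM) but not per kilobase of coding sequence (324.1 CPM), as its principal transcript in the annotation is 3706 bases long.

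**Figure D1:**
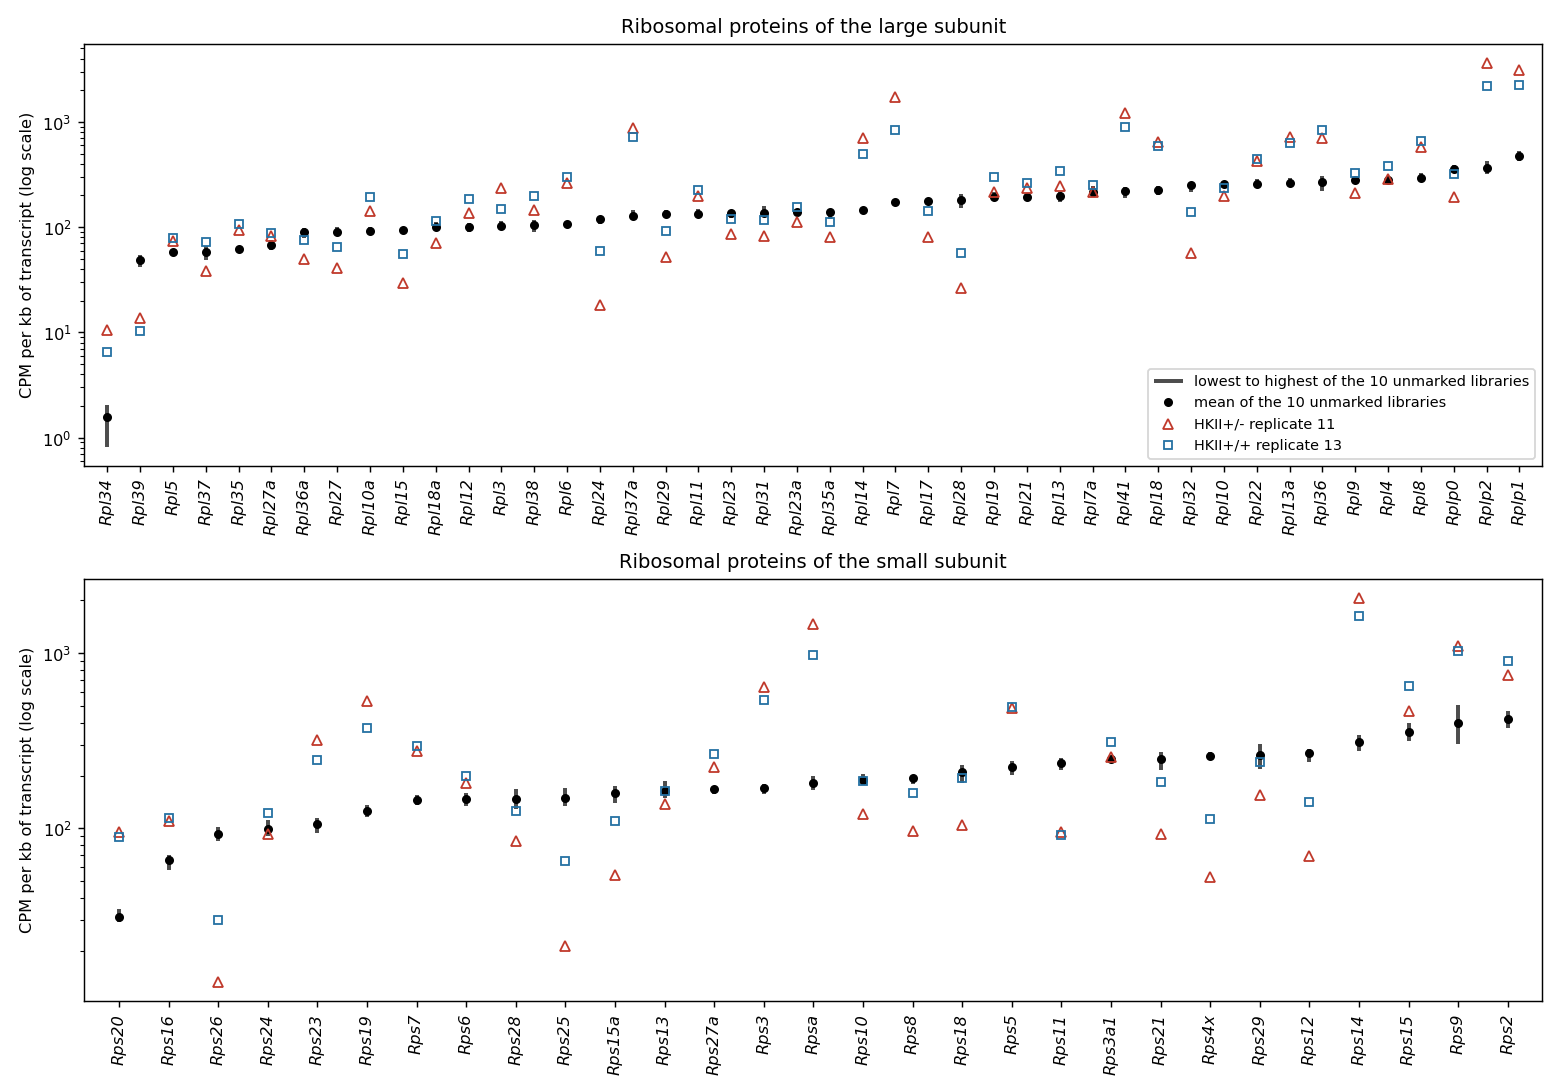
Level of the subunit proteins, 1 gene left out, in CPM per kilobase of transcript, on a log axis, for the large subunit (upper panel) and the small subunit (lower panel). Black points are means and bars run from the lowest to the highest of the 10 unmarked libraries, and open symbols are the marked libraries. Bars are short for nearly all genes, Rpl34 lies lowest at 1.58, and the open symbols lie on both sides of the bars.

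Between the unmarked hearts the levels of these genes were stable. The coefficient of variation over the 10 libraries had a median of 6.10% among the 74 subunit proteins and was under 10% in 71 of them. On the log2 scale (0.5 CPM added) the median SD was 0.088, beside 0.098 for the 5033 genes between 29.8 and 481.9 CPM and 0.14 for all genes tested. The spread contains counting error as well as differences between hearts. Among members at 100 CPM or more, the steadiest were Rpl7, Rps7, Rps4x, Rpl4 and Rps27a. Rpl4, a protein that lines the exit tunnel, ranged from 408.8 to 458.9 CPM with a median of 429.0. Rps4x, the X-linked form of RPS4, ranged from 239.6 to 267.2 CPM with a median of 253.0.

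Among the least steady at that level were Rps9, Rpl3l, Rpl36 and Rplp2. Rps9 measured 299.2, 276.9, 315.0, 358.9 and 339.2 CPM in HKII+/- replicates 12, 16, 19, 20 and 22. It measured 227.0, 232.5, 327.9, 378.4 and 243.6 CPM in HKII+/+ replicates 14, 15, 17, 18 and 21. HKII+/+ replicates 14, 15 and 21 were therefore lowest and HKII+/+ replicate 18 highest, and the genotypes overlapped. Of its 100-base windows 25% occur in another gene. Rpl36 ranged from 83.6 to 117.3 CPM with a median of 100.3, and Rplp2 from 135.2 to 177.7 with a median of 153.7. Both were lowest in HKII+/- replicate 12.

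Rpl3l, the muscle paralogue, was more abundant per length than Rpl3 in every unmarked heart. Rpl3l (ENSMUSG00000002500.15) lies on chromosome 17 from 24727820 to 24736143, and Rpl3 (ENSMUSG00000060036.14) on chromosome 15 from 80077791 to 80091868, both in GRCm38. Rpl3l measured 199.9, 205.9, 273.5, 222.5 and 273.8 CPM in HKII+/- replicates 12, 16, 19, 20 and 22. It measured 216.2, 212.0, 255.3, 258.8 and 258.3 CPM in HKII+/+ replicates 14, 15, 17, 18 and 21. Each genotype thus held lower and higher libraries, and the ranges overlapped almost wholly. Rpl3 was steadier, between 126.7 and 154.1 CPM with a median of 137.9 over the 10. The ratio of Rpl3l to Rpl3 per kilobase had a mean of 1.68 ± 0.302 in HKII+/- and 1.72 ± 0.267 in HKII+/+ hearts (SD, n = 5 each), and coding length gave 1.70 and 1.73. No 100-base window of Rpl3l occurs in another gene, while 79.4% of those of Rpl3 do, so the level of Rpl3, and with it the ratio, is uncertain.

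The ratio fell into a lower and a higher set of libraries that cut across the genotypes. It was 1.42 to 1.53 in HKII+/- replicates 12, 16 and 20 and HKII+/+ replicates 14 and 15. It was 1.83 to 2.06 in HKII+/- replicates 19 and 22 and HKII+/+ replicates 17, 18 and 21. The 5 libraries with the lower ratio held the 5 highest sums of the 6 atrial markers (5734 to 7235 CPM), and the 5 with the higher ratio held the 5 lowest (338.3 to 4291 CPM). In the same table of 12 marker lists, 4 other lists split these libraries without overlap as well. The fat markers summed to 120.0 to 295.5 CPM where the ratio was lower and to 28.5 to 104.3 where it was higher, and the mesothelial markers to 89.4 to 102.9 and 29.5 to 76.2 CPM. The airway markers summed to 1.69 to 1.96 and 0.567 to 1.14 CPM and the skeletal muscle markers to 4.96 to 5.69 and 1.86 to 4.79 CPM. The ratio of Eef1a2, the muscle form of elongation factor 1A, to Eef1a1 split the same way, from 1.31 to 1.41 in the former and from 1.54 to 2.48 in the latter. In the marked libraries the Rpl3l to Rpl3 ratio was 0.766 (HKII+/- replicate 11, atrial sum 16998 CPM) and 2.08 (HKII+/+ replicate 13, atrial sum 5673 CPM), the lowest and the highest of all 12. With them the means were 1.53 ± 0.461 in HKII+/- and 1.78 ± 0.280 in HKII+/+ hearts (SD, n = 6 each). The part of atrial or other tissue in these ratios was not tested.

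**Figure D2:**
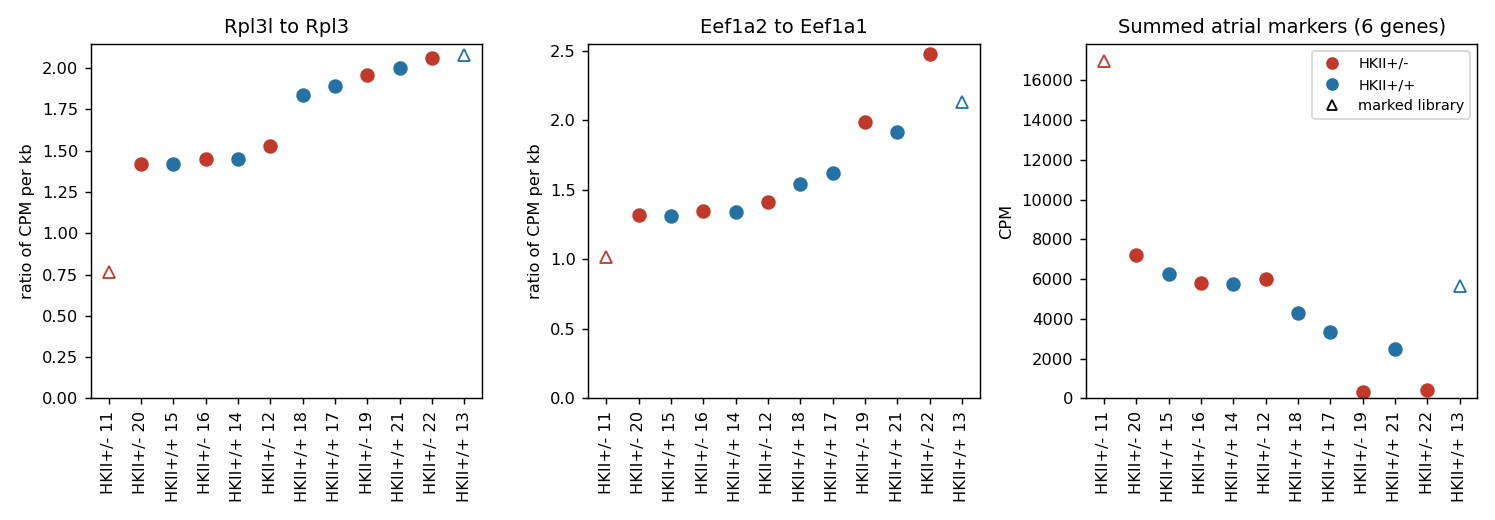
Ratio of Rpl3l to Rpl3 (left) and of Eef1a2 to Eef1a1 (middle), both from CPM per kilobase of transcript, and the summed CPM of 6 atrial markers (right), by library, ordered by the ratio of Rpl3l to Rpl3. Red points are HKII+/-, blue points HKII+/+ and open triangles the marked libraries. Both genotypes occur on either side of the gap between 1.53 and 1.83, and the atrial sum is lower to the right of it, with HKII+/+ replicate 13 (5673 CPM) nearest to the libraries on the left.

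The remaining paralogues were less abundant per length than their partners, apart from Rps27l and Rps4l, for which no ratio is given. Rpl36al, a close copy of Rpl36a, stood at 69.8 CPM per kilobase, 76.9% of its partner. Rpl7l1, which acts in nucleolar ribosome assembly, stood at 22.3% of Rpl7 and Rpl22l1 at 12.0% of Rpl22. Rpl39l, known from the testis, was at 0.301% of Rpl39, and the testis form Rpl10l was listed at 0. Rps27l, a target of p53, measured 65.3 CPM per kilobase, above Rps27 (1.08), but with Rps27 near 0 no ratio is given. Rps4l ranged from 11.9 to 19.3 CPM with a median of 15.2, and has no length in the annotation used.

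The marked libraries departed from the other 10 in the proportions of these genes and not in their sum alone. Each was compared with the mean log2(CPM + 0.5) of the 5 unmarked libraries of its own genotype, as a description of 1 library. In HKII+/- replicate 11, 20 of the 74 subunit proteins were more than 2-fold higher (20.3% of all genes tested) and 15 more than 2-fold lower (25.8% of all genes). Together these were 47.3%, beside 46.1% of all genes. In HKII+/+ replicate 13, 23 were higher (13% of all genes) and 6 lower (19.5% of all genes), together 39.2%, beside 32.5% of all genes. Taken over both directions, the share of these genes past 2-fold was thus close to or a little above that of genes in general. By direction the 74 leaned to the high side, with a median difference (log2) of 0.21 in replicate 11 and 0.43 in replicate 13. Over all genes tested it was −0.089 and −0.099. Rpl34, whose high values were fixed by the choice of members, is among the 20 and the 23. Replicate 11 lay above all 10 unmarked libraries in 38 of the 74 genes, below them in 31 and inside their range in 5, beside 84.9% of all genes outside it. Replicate 13 lay above in 47, below in 23 and inside in 4, beside 79.5% of all genes outside. In the 10 unmarked libraries no subunit protein was more than 2-fold from the mean. The SD of the differences over the 74 genes was 1.51 (log2) in replicate 11 and 1.05 in replicate 13, against 0.061 to 0.085 in the unmarked libraries.

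Rpl7 had the highest fold of all members in replicate 11. It ranged from 190.8 to 211.1 CPM with a median of 200.1 in the unmarked libraries, and measured 1997 CPM in replicate 11 (9.87-fold its genotype's mean) and 974.5 CPM in replicate 13 (4.89-fold). Rplp2 followed, at 1523 (9.69-fold) and 929.5 CPM (6.07-fold), and Rplp1 at 1564 (6.64-fold) and 1116 CPM (4.70-fold). The third stalk protein did not go with them, since Rplp0 measured 260.0 CPM in replicate 11 (53.5% of the mean) and 431.7 CPM in replicate 13 (90.3%). Rpsa reached 2322 (7.93-fold) and 1550 CPM (5.38-fold), Rps14 6.64-fold and 5.22-fold, and Rpl37a 6.82-fold and 5.59-fold. Rpl34 was at 5.06 and 3.15 CPM, against 0.393 to 0.979 CPM elsewhere. Its mean over the unmarked libraries was 0.761 CPM, so it reached the threshold of 1 CPM through the marked libraries alone, and its high values there were fixed by the choice of members.

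Others lay lower, by smaller folds than the highest members were raised. Rpl28 ranged from 118.0 to 161.2 CPM with a median of 140.4 in the unmarked libraries and measured 20.6 CPM in replicate 11 (14.8% of the mean) and 44.3 CPM in replicate 13 (32.0%). Rps4x was at 51.7 (20.4%) and 110.6 CPM (44.0%). Rps25 stood at 14.2% and 43.6% of the mean, Rps26 at 14.4% and 32.5%, and Rpl24 at 15.3% and 50.2%. The paralogues Rpl36al (12.5% and 25.7%) and Rps27l (13.9% and 29.4%) had the lowest percentages of the 81 members in replicate 11. Rpl3l was at 1.06-fold in replicate 11 and 1.79-fold in replicate 13, and Rpl3 at 2.32-fold and 1.47-fold.

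The departures had a similar shape in both libraries, which carry different genotype labels. Of the 74 subunit proteins, 25 were past 2-fold in both, 19 higher in both and 6 lower in both, beside 28.7% of all genes past 2-fold in both. Rpl34, whose high values were fixed by the choice of members, is among the 25 and the 19 and in the correlation below. Across the 74 genes the differences of replicate 11 and of replicate 13, which use different control libraries, had a Pearson correlation of 0.970. It was 0.937 over the 5033 genes of similar level and 0.865 over all genes tested, so the common shape was not confined to ribosomal proteins. These are correlations across genes of 2 libraries, and genes are not independent replicates. Of the 74 differences, 45 were larger in replicate 11. Spearman correlations of the differences with GC content (0.20 in replicate 11 and 0.25 in replicate 13), transcript length (0.20 and 0.17) and the share of windows found in other genes (−0.16 and −0.17) were weak over the 74 genes.

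**Figure D3:**
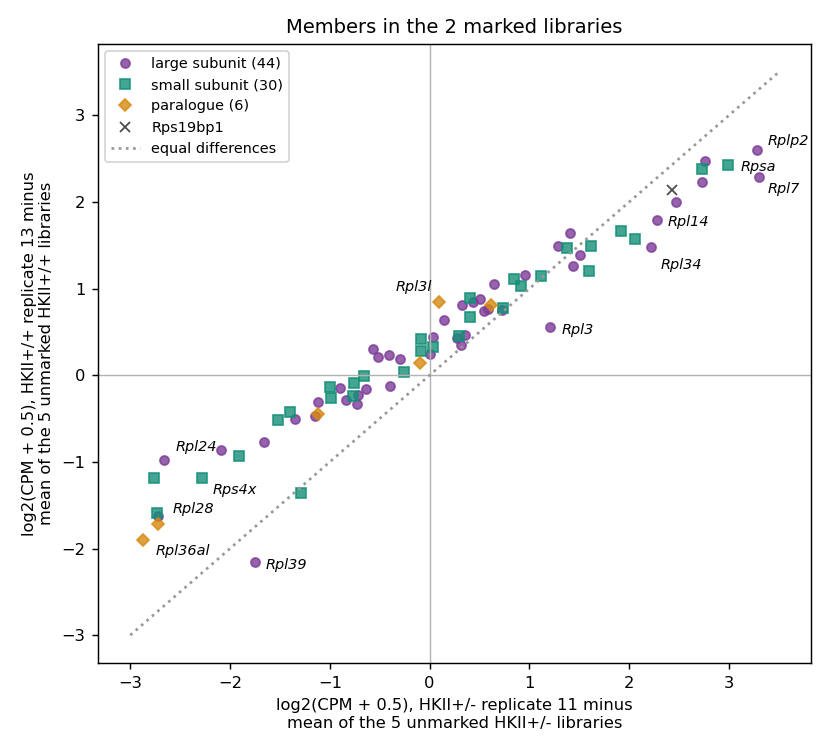
Difference of HKII+/- replicate 11 (x axis) and of HKII+/+ replicate 13 (y axis) from the mean of the 5 unmarked libraries of the same genotype, in log2(CPM + 0.5), for the 81 genes. Symbols show the subunit or paralogues, and the dotted line marks equal differences. The genes spread along a common diagonal from Rpl36al to Rplp2 and Rpl7, with Rpl3, Rpl3l and Rpl39 to the side.

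Marker lists of cell types differed in the marked libraries as well. In replicate 11 the sums of 10 of the 12 lists lay above all unmarked libraries. The airway and lung epithelium markers summed to 370.2 CPM (8 of 10 markers above all unmarked libraries), the fat markers to 1408 CPM (5 of 7 above; 28.5 to 295.5 CPM unmarked) and the atrial markers to 16998 CPM (3 of 6 above). In both marked libraries 5 lists lay above all unmarked libraries. The cardiomyocyte markers listed as ventricular summed to 181331 and 204507 CPM in replicates 11 and 13, with 4 of 10 above all unmarked libraries in each and 5 and 3 below. The fibroblast markers summed to 12630 and 3950 CPM (1003 to 1707 unmarked), with 4 and 3 of 8 above and 4 below in each. The endothelial markers summed to 1952 and 1826 CPM (1424 to 1701 unmarked), with 2 and 3 of 7 above and 4 below in each. The nerve and Schwann cell markers summed to 77.4 and 24.2 CPM (9.46 to 19.1 unmarked), with 6 and 3 of 6 above. The skeletal muscle markers summed to 14.5 and 7.08 CPM (1.86 to 5.69 unmarked), with 4 and 3 of 8 above. The leukocyte markers lay below all unmarked libraries in both, at 135.8 and 142.2 CPM (144.8 to 223.7 unmarked), with 6 and 5 of 8 below. The smooth muscle and mesothelial markers were above in replicate 11 alone (986.5 and 150.6 CPM). In replicate 13 the airway (1.25 CPM), atrial and mesothelial (51.3 CPM) sums lay inside the unmarked range and the fat (25.4 CPM) and smooth muscle (574.4 CPM) sums under it. The red cell sums (23.3 and 16.9 CPM) lay inside it in both. The part of other cell types in the members' values was not tested.

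Between genotypes, no ribosomal protein gene passed the test, with or without the marked libraries. In edgeR's quasi-likelihood test over all 12 libraries (Benjamini-Hochberg over 14107 genes, adjusted p below 0.05), 0 of the 81 members were called, beside 0% of all genes. DESeq2 and limma voom with quality weights also called 0 members, beside 0 and 2 of all genes. In each of these fits 0 members had an unadjusted p under 0.05. Of all genes 37 had one in edgeR (0.262%), 64 in DESeq2 (0.454%) and 671 in limma voom (4.76%). The median log2 fold change of HKII+/- over HKII+/+ was −0.047 over the 81 members, with 23 above 0 and 58 below (all genes: median −0.0013, 49.5% above 0 and 50.5% below). It was 0.040 without HKII+/+ replicate 13. The median standard error was 0.21, and the 95% interval of the fold change lay within 1.25-fold of equality for 13 of the 81 genes (11.6% of all genes) and within 1.5-fold for 43. In these 12 libraries a change of moderate size would not have been detectable in most of the members.

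The members with the smallest p over 12 libraries were Rpl3l, Rps24, Rpl37, Rpl38 and Rpl7, all with an adjusted p of 1.0 in edgeR. Rpl3l had a log2 fold change of −0.19 (SE 0.18, unadjusted p = 0.293), Rps24 of −0.10 (SE 0.098) and Rpl37 of −0.14 (SE 0.14). Rpl7 had the highest value, 0.61, but with a standard error of 0.72 and a 95% interval from −0.96 to 2.18. It took its sign from HKII+/- replicate 11, since its value was −0.71 without that library and 0.022 without both marked libraries. No member's groups were free of overlap, beside 0.0213% of all genes.

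Without the marked libraries the intervals narrowed around equality. Over 10 libraries edgeR called 0 of the 81 members, beside 0.00707% of 14139 genes, which is Hk2 alone (log2 fold change −0.80, SE 0.088, adjusted p = 0.0165, HKII+/- lower in 5 of 5 libraries). The call was lost in 7 of the 10 fits that left out 1 more library, with adjusted p up to 0.0951 in edgeR and log2 fold changes from −0.88 to −0.75. DESeq2 and limma voom with quality weights again called 0 members, beside 3 and 1 of all genes. No member had an unadjusted p under 0.05, against 396 genes (2.80%) in edgeR, 351 (2.48%) in DESeq2 and 650 (4.60%) in limma voom. The median log2 fold change was 0.0066 over the 81 members, with 49 above 0 and 32 below, beside −0.0046 over all genes (47.3% above 0 and 52.7% below), but it was −0.0022 (39 above 0) with upper-quartile scaling. The median standard error fell to 0.060, and 78 of the 81 members had a 95% interval within 1.25-fold of equality, beside 61.4% of all genes. The 3 that did not were Rpl34 (−0.70 to 0.30), Rps9 (−0.13 to 0.48) and Rps4l (−0.37 to 0.14). No member's groups were free of overlap, beside 0.474% of all genes.

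**Figure D4:**
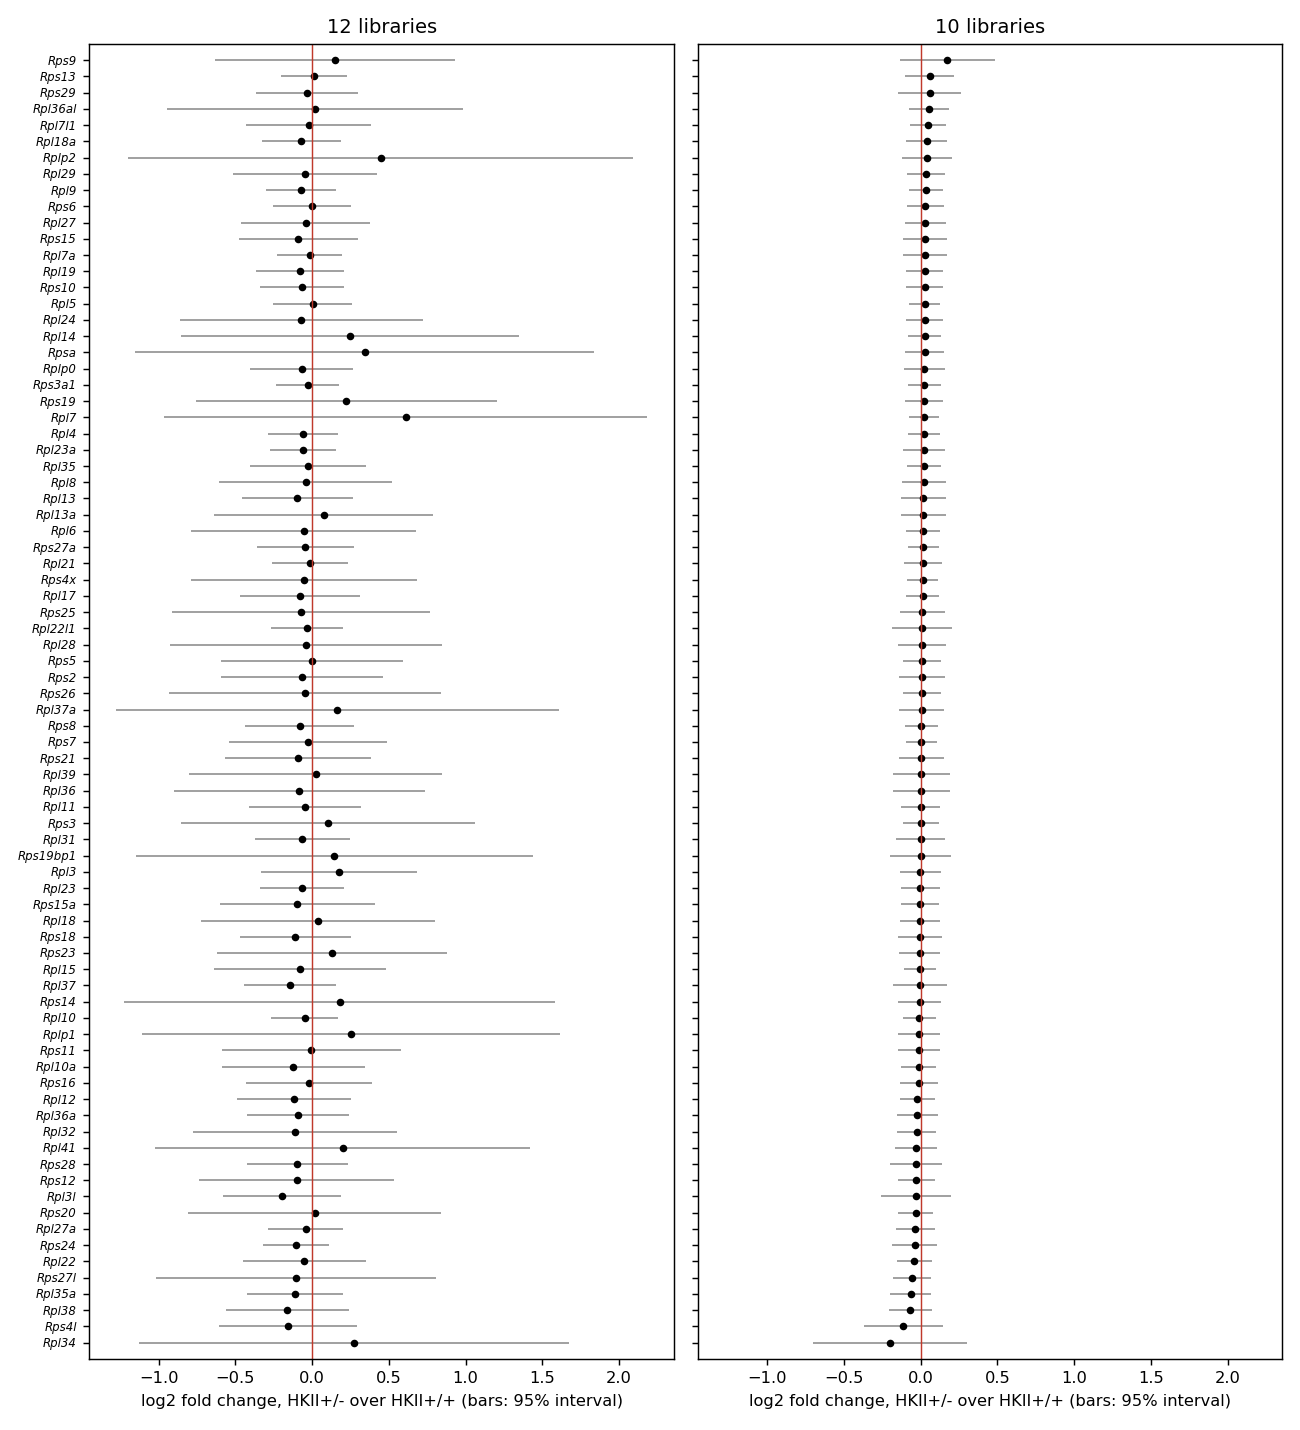
Log2 fold change of HKII+/- over HKII+/+ for 80 of the 81 genes, with 12 libraries (left) and with the 10 unmarked libraries (right), on a common axis and in the order of the right panel. Points are edgeR estimates and bars their 95% intervals. Every interval includes 0, and the bars are far shorter on the right, where the median standard error is 0.060 against 0.21.

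The smallest p over 10 libraries belonged to Rps9 (0.17, SE 0.14, unadjusted p = 0.241), Rpl38 (−0.069, SE 0.064), Rpl35a (−0.064, SE 0.061), Rps27l (−0.057, SE 0.056) and Rps4l (−0.11, SE 0.12), all with an adjusted p of 1.0. Rpl3l had a log2 fold change of −0.030 (95% interval −0.26 to 0.20) and Rpl3 of −0.0011 (−0.13 to 0.13). Among the stalk proteins and Rpsa no interval reached 1.25-fold. With HKII+/- replicates 19 and 22, the libraries with the lowest atrial sums, left out as well, edgeR again called 0 members. The median of the members then became −0.058, beside −0.0030 over all genes, with 8 members above 0 and 73 below. In that edgeR fit 6 members had an unadjusted p under 0.05 (Rpl38, Rpl37, Rpl3l, Rps28, Rps14 and Rps4l), beside 7.02% of all genes. Rpl3l then stood at −0.19 (SE 0.083, adjusted p = 0.706 in edgeR). With the atrial markers as a covariate over the 10 libraries the median was −0.034, beside −0.0037 over all genes, with 11 members above 0. Members are not independent replicates, so these counts above and below 0 were not tested.

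Genes that work around the ribosome gave a like picture. In each of 7 lists 0 were called in either direction, beside 0% of all genes over 12 libraries and 0.00707% over 10. Over the 10 libraries 47.3% of all genes lay above 0, and the counts above 0 given here were not tested. Of the 15 elongation factors and other TOP messengers tested, 8 lay above 0 over the 10 libraries, among them Eef1a2 (0.092, SE 0.086) and Pabpc1 (0.047, SE 0.042), the poly(A)-binding protein. Of 34 initiation factors 16 lay above 0, with Eif4g3, a scaffold of the cap-binding complex, at −0.066 (SE 0.043). Of 60 ribosome assembly factors 38 lay above 0, with Utp18 at 0.19 (SE 0.0995) and Nol9, a kinase of ribosomal RNA processing, at 0.13 (SE 0.069). Of 15 genes of the RNA polymerase I machinery, which transcribes ribosomal RNA, 12 lay above 0. The largest difference there was that of Taf1b, a subunit of its promoter factor, at −0.17 (SE 0.083), and Ubtf, the upstream binding factor, stood at 0.11 (SE 0.054). Of 25 regulators of TOP translation 14 lay above 0, and Rps6kb1, the S6 kinase that acts below mTORC1, stood at −0.090 (SE 0.056). Of 11 genes of ribosome recycling and quality control 2 lay above 0, and Denr, which releases the tRNA after termination, stood at −0.069 (SE 0.062). Of the ribosomal proteins that carry other names, Fau stood at −0.0074 (SE 0.061) and Gnb2l1 at −0.0059 (SE 0.060).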

How the data were processed

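Polyadenylated RNA of 12 heart samples was sequenced as single-end reads of 100 nt, per the labels' protocols. The authors deposited raw counts of reads by gene symbol, without normalisation. STAR 2.4.0, featureCounts 1.4.4 and mm10/GRCm38 are named in the submitters' processing notes. For the annotation release, the strand setting and reads that fit several genes, the setting is not given in the sources used here. Titles gave the genotype. Nothing states that libraries come from separate animals, so the tests set the genotype difference against the spread between these samples, and n counts samples. The lowest chi-square per degree of freedom between libraries of a genotype was 7.03, so no pair within a genotype agreed within sampling noise. Pairs across genotypes were not compared.

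The fits used edgeR 4.0.16 (glmQLFit, glmQLFTest) in R 4.3.3, on all genes passing filterByExpr (minimum count 10), with TMM factors and no covariate, adjusted by Benjamini-Hochberg over all genes tested (0.05), once over 12 and once over 10 libraries. All 81 members passed. Intervals (95%) use the fitted standard error. limma 3.58.1 (voom with quality weights) and DESeq2 1.42.0 were alternatives, beside other scalings, filters and left-out libraries. Fits were tested on simulated data. Depth, 17263209 to 51556592 counts, limits the precision of the lowest genes. Lengths, shared windows and coordinates came from GENCODE vM21 (GRCm38), with the shortest transcript of the best APPRIS rank, and promoters from RefSeq (GRCm38.p6).

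Named genes were hexokinase II, the paralogue pairs, the stalk proteins, Rpsa, Rps6 and Rps27a, the 5 members highest and lowest per kilobase and in SD, the 5 with the smallest p in each fit, those near the threshold, and the members of each list with the smallest p. Results of 2 genes are not reported here. Genes named for the marked libraries, and Rpl41 and Rps29, were chosen after their values were seen. Members and lists were chosen with earlier results of these data known.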

Additional observations from a re-analysis of the deposited data

Results flagged for a closer look

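A library was noted where its gap to the nearest library of its genotype exceeded Dixon's 95% limit, which chance does in about 1 group in 20. HKII+/- replicate 11 was noted for the summed share of counts (1.80%), Rpl3 (319.6 CPM) and Hk2 (567.95 CPM), and for 31 members on the high side and 22 on the low side, beside 29% and 24.8% of all 14107 genes tested. HKII+/+ replicate 13 was noted for the summed share (1.60%), Rpl3l (429.8 CPM) and Rpl3 (203.0 CPM), and for 43 members on the high side and 17 on the low side, beside 25.4% and 19.9% of all genes. Rpl34, whose high values in these libraries were fixed by the choice of members, is in both counts on the high side. Among the 5 unmarked libraries of each genotype, 0 of 81 members were noted in HKII+/- and 3 in HKII+/+, beside 4.77% and 6.10% of all genes. These 3 were 1 member in replicate 15 (Rpl29, low), 1 in replicate 17 (Rpl31, high) and 1 in replicate 18 (Rps16, high).

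Symbols ending in -ps, left out by the rule, also held counts. Over 12 libraries these summed to 279 for Rpl14-ps1, 200 for Rps19-ps3, 171 for Rps15a-ps6, 29 for Rps15a-ps4 and 7 for Rpl31-ps12, while Rplp2-ps1 and Rpl34-ps1 were listed at 0.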

How the results depend on the processing

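No paired analysis was possible because no replicate number is used in both genotypes. The count of members called was 0 under every alternative run, in both fits, also at an adjusted p of 0.10. At 0.05 these runs called 0 to 3 of all genes tested, so a count of 0 is not particular to the members. Leaving out 1 library at a time gave medians of the members from −0.0659 to 0.0402 over 12 libraries and from −0.0149 to 0.0317 over 10, and the other alternatives gave −0.0767 to −0.012 and −0.0575 to 0.0087. The genotypes' difference in summed share of counts ranged from −0.0693 to 0.1121 percentage points, so neither it nor these medians kept their sign. Of the single values, over 12 libraries leaving out 1 library gave −0.1113 to 0.3033 for Rpl3, −0.7108 to 1.3614 for Rpl7 and −0.2609 to 0.0437 for Rpl38. Rpl3 and Rpl7 were below 0 without HKII+/- replicate 11, and Rpl38 was above 0 without HKII+/+ replicate 13. Over 10 libraries Rpl3, close to 0, changed to 0.0263 with limma voom with quality weights, 0.024 with the atrial covariate and 0.0274 without HKII+/- replicates 19 and 22, and ranged from −0.0438 to 0.0207 when 1 library was left out. Rpl3l ranged from −0.0895 to 0.0209 in the same way. The causes were not tested. Hk2 was called over 12 libraries with limma voom with quality weights alone (−0.8836, adjusted p = 7.66e-05). Leaving out 1 of the 10 libraries gave −0.8762 to −0.7546 (adjusted p from 0.00106 to 0.0951 in edgeR), and Hk2 was not called without HKII+/- replicate 12, 16, 19 or 20 or HKII+/+ replicate 15, 17 or 18. Rps24 and Rpl37 over 12 libraries, Rps9, Rpl38, Rpl35a, Rps27l and Rps4l over 10, and the ratio of Rpl3l to Rpl3 kept their direction under the alternatives run, and Rpl3l did over 12. Single values of the other members were not recomputed. Depth limits the genes near the threshold: Rpl34 had the widest interval over 10 libraries.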
